A study of Rattus norvegicus with 6 samples.

Results

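A set of 9 genes of the mitochondrial genome that encode subunits of the respiratory chain and of ATP synthase were examined in rat brain. They were chosen by a fixed list of Ensembl IDs, and all 9 were found among the 22250 genes of the count table. The list also gives their names, since the table carries IDs only: Mt-nd1 (ENSRNOG00000030644), Mt-nd2 (ENSRNOG00000031033), Mt-nd3 (ENSRNOG00000033615), Mt-nd4 (ENSRNOG00000029707) and Mt-nd5 (ENSRNOG00000029971) of complex I, Mt-cyb (ENSRNOG00000031766) of complex III, Mt-co1 (ENSRNOG00000034234) and Mt-co2 (ENSRNOG00000030371) of complex IV, and Mt-atp6 (ENSRNOG00000031979) of complex V. The data are 6 libraries of poly(A)-selected RNA from brain tissue: 3 of rats in which experimental autoimmune prostatitis (EAP) had been induced and 3 of rats labelled normal. EAP is an immune model of chronic prostatitis, raised by injecting prostate protein of the rat together with Freund's adjuvant, and the study examined it for male sexual dysfunction. The sources used here do not give the strain, age, brain region, time after injection, treatment of the normal rats or number of animals per library. The libraries are numbered, but no label says that a number stands for 1 animal. The p-values below therefore refer to the spread from library to library, which may be technical.

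Mitochondrial DNA is copied into long precursor RNAs, which are cut apart, mostly at the transfer RNAs that lie between the genes. All of the genes examined here are read from the same strand, so their messages start as parts of common precursors and then differ in processing and stability. The messages end in short poly(A) tails and are therefore caught by oligo(dT) selection. Their proteins form the membrane core of the complexes that pump protons and make ATP, on which neurons depend heavily, while most other subunits are encoded in the nucleus.

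Library totals ran from 12534210 to 14669760 counts. Each gene had at least 1921 counts in each library, so that counting error was small beside the differences between libraries. The exact 95% binomial interval of the summed share of the 9 genes was at most 0.0217 percentage points wide. Such intervals cover counting error only, as the reads carry no molecular identifiers. Chromosomal copies of mitochondrial DNA and overlapping neighbours can share reads with these genes, and the sources used here do not say how such reads were counted. The assignment of reads among them is therefore uncertain, for Mt-nd4 and Mt-atp6 also because each overlaps another mitochondrial gene.

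The share of RNA that the 9 genes took together did not differ between the groups beyond the spread of the libraries. Their summed share of all counts in EAP replicates 1, 2 and 3 was 3.77%, 4.24% and 4.02%. It was 4.38%, 3.85% and 4.03% in normal replicates 1 to 3. The groups overlapped: normal replicate 1 was the highest library and EAP replicate 1 the lowest. The means were 4.01% ± 0.233 in EAP and 4.09% ± 0.266 in normal brain (SD, n = 3 each), a difference of -0.0772 percentage points that is smaller than either SD. Without EAP replicate 1 or without normal replicate 1 the log2 ratio of the means, -0.03 with all libraries, became 0.01 and 0.02. In bulk tissue, fewer cells rich in mitochondria and less mitochondrial RNA per cell cannot be told apart.

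**Figure D1:**
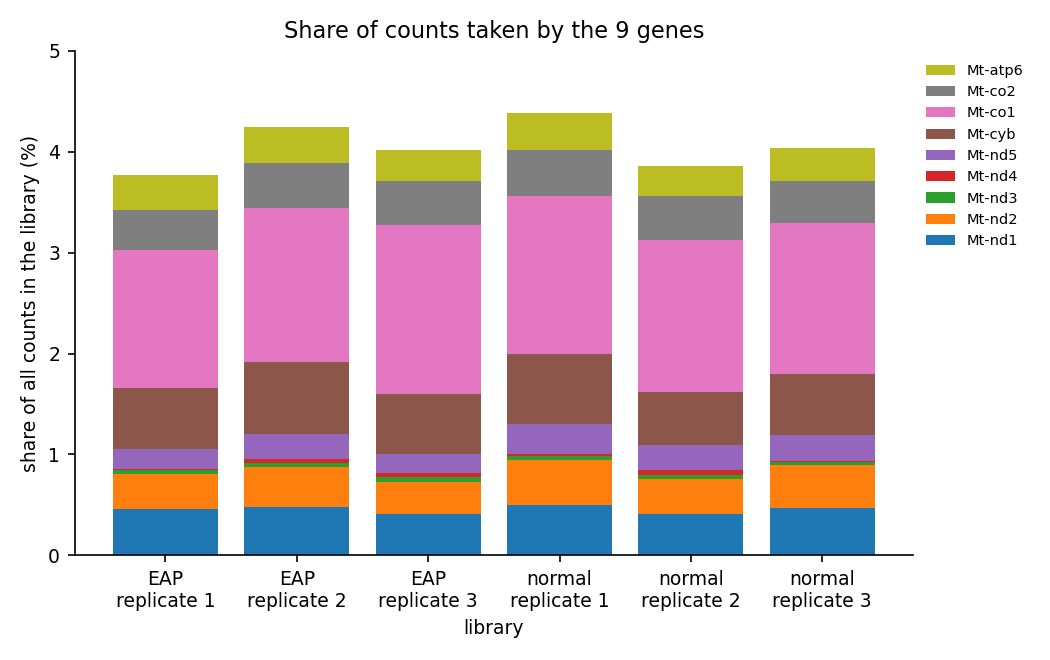
Stacked bars give the percent of all counts in each of the 6 libraries that fell on each of the 9 genes; bars start at 0 and the whole bar is the summed share. Bars run from 3.77% (EAP replicate 1) to 4.38% (normal replicate 1), Mt-co1 is the widest band in each library, and the groups overlap.

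No difference between EAP and normal brain passed the test in any of the 9 genes. All 9 were tested, and 0 passed an adjusted p of 0.05 (edgeR quasi-likelihood test with Benjamini-Hochberg adjustment over 13155 genes). Over all genes tested, 0.0304% passed, so a count of 0 among 9 is not set apart from the background. A single gene, Mt-nd5, had an unadjusted edgeR p under 0.05, as did 11.1% of all genes tested (6.3% with lower levels in EAP, as for Mt-nd5). DESeq2 and limma voom also called 0 of the 9, and called 1.31% and 0.0076% of all genes. The fitted log2 fold change was below 0 for 7 of the 9 and for 48.3% of all genes tested. The median was -0.06 over the 9 genes and 0.01 over all genes. With libraries scaled by total count alone, 4 of the 9 were below 0 (Mt-nd1, Mt-nd2, Mt-co2 and Mt-nd5), while the median was 0.0007 over the 9 genes and 0.07 over all genes. Scaling moves all genes of a library alike, so the number below 0 is not read as a direction. The median of the 9 genes lay slightly below that of all genes under both scalings, by an amount that depended on single libraries. With 1 library left out it ran from -0.115 (without normal replicate 2) to -0.008 (without normal replicate 1). The medians of all genes in these fits were 0.007 and 0.014. Whether this is a difference was not tested.

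**Figure D2:**
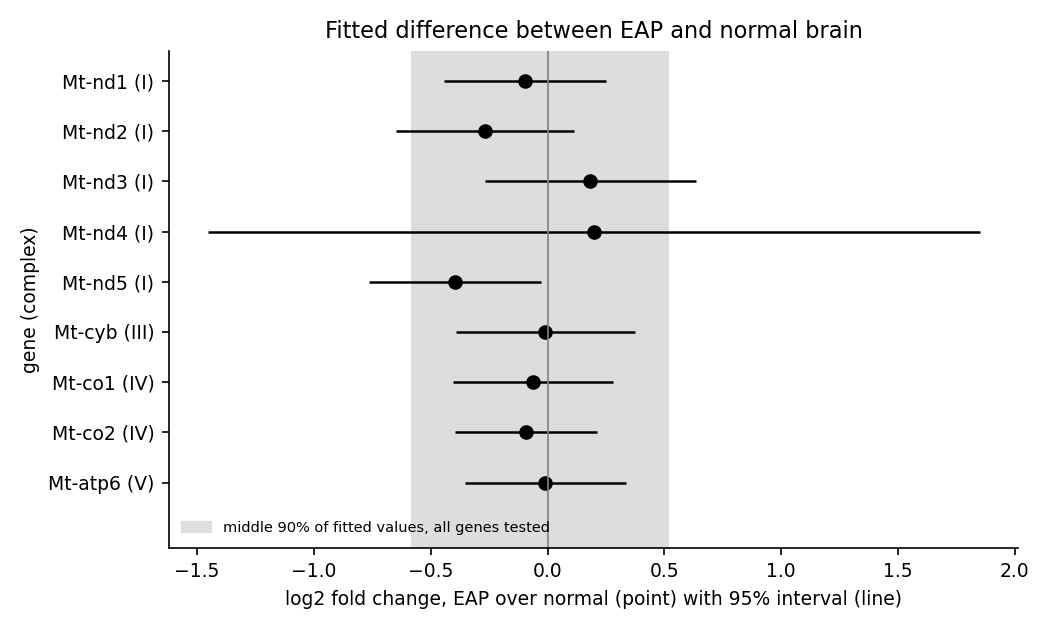
Points are fitted log2 fold changes of EAP over normal brain for each gene, with its complex in brackets, lines are 95% intervals of the edgeR fit, and the grey band holds the middle 90% of fitted values of all genes tested (-0.58 to 0.52). The interval of Mt-nd5 (-0.77 to -0.03) lies below 0, those of the other 8 genes span it, and that of Mt-nd4 is the widest (-1.46 to 1.85).

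Complex I is the largest complex of the chain and takes electrons from NADH, and the ND genes encode parts of its membrane arm. Mt-nd5, one of the proton-pumping subunits, came nearest to a difference. It stood at 1941, 2424 and 1832 CPM (counts divided by the TMM-adjusted library size) in EAP replicates 1, 2 and 3 and at 3172, 2480 and 2510 CPM in normal replicates 1 to 3. All 3 EAP libraries lay below all 3 normal libraries, with EAP replicate 2 only just below normal replicate 2; 8.41% of all genes tested showed the same order. None of the 9 genes showed the reverse order, with all EAP libraries above all normal ones, which held for 8.39% of all genes tested. The means were 2066 ± 315 CPM in EAP and 2721 ± 391 CPM in normal brain (SD, n = 3 each). The log2 fold change was -0.40 (SE 0.16, 95% interval -0.77 to -0.03), with an edgeR p of 0.0375 before and 0.434 after adjustment. DESeq2 gave an adjusted p of 0.217. Over 17 alternative fits the log2 fold change of Mt-nd5 ran from -0.53 to -0.27, below 0 in each, and its adjusted p from 0.217 to 0.693. These fits reuse the same 6 libraries and are not separate results. With no overlap between the groups, leaving out libraries could hardly turn the sign. Mt-nd5 was thus lower in each EAP library of these 6, by an amount that did not pass the test across genes.

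Mt-nd2, another pumping subunit, stood at 3345, 3967 and 3076 CPM in EAP and 4778, 3425 and 4295 CPM in normal replicates 1 to 3. EAP replicate 2 lay above normal replicate 2, so the groups overlapped. Its log2 fold change was -0.27 (SE 0.17, 95% interval -0.65 to 0.12, edgeR adjusted p = 0.578).

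Mt-nd1 sits where the membrane arm meets the arm that carries the electrons. It had 4520, 4705 and 3955 CPM in EAP and 5357, 4087 and 4656 CPM in normal replicates 1 to 3, with normal replicate 2 among the low libraries. The log2 fold change of Mt-nd1 was -0.10 (95% interval -0.44 to 0.25, edgeR adjusted p = 0.842).

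Mt-nd3, a small subunit near the same junction, took far fewer reads than Mt-nd1, Mt-nd2 and Mt-nd5. It had 405, 342 and 499 CPM in EAP and 421, 406 and 270 CPM in normal replicates 1 to 3. The highest was EAP replicate 3 and the lowest normal replicate 3, and the other 4 lay between without regard to group. Its log2 fold change was 0.18 (95% interval -0.27 to 0.64, edgeR adjusted p = 0.766).

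Mt-nd4, a pumping subunit of the membrane arm, varied more than any other of the 9 genes. It had 150, 381 and 427 CPM in EAP replicates 1, 2 and 3 and 184, 487 and 166 CPM in normal replicates 1 to 3. Its values fell into a high and a low set in each group: EAP replicates 2 and 3 and normal replicate 2 were high, and EAP replicate 1 and normal replicates 1 and 3 were low. The highest library was 3.24 times the lowest over the 6 libraries, 2.84 times within EAP and 2.94 times within normal brain. For the other 8 genes the highest library was 1.24 to 1.85 times the lowest. The raw counts of Mt-nd4 gave the same picture, with 5140, 5754 and 6592 in the high libraries and 1921, 2347 and 2427 in the low ones. The totals of the 3 high libraries, 13078670 to 13514840 counts, lay inside the range of the 3 low ones.

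Among 1002 other genes with a mean level within 2-fold of Mt-nd4, 32 (3.19%) had as wide a range, and their median ratio of highest to lowest library was 1.32. The biological coefficient of variation that edgeR estimated was 52.1% for Mt-nd4 and 17.3% to 20.2% for the other 8 genes. With this spread the test between groups had little reach: the log2 fold change was 0.20 (SE 0.63) with a 95% interval of -1.46 to 1.85 (edgeR adjusted p = 0.933). The value depended on single libraries. It was 0.87 without normal replicate 2, 0.54 without EAP replicate 1, 0.05 without EAP replicate 2, and -0.07, -0.03 and -0.07 without EAP replicate 3, normal replicate 1 and normal replicate 3. With both EAP replicate 1 and normal replicate 2 left out it was 1.21, with an edgeR adjusted p of 0.00339, against adjusted p-values of 0.522 to 0.997 in the other alternatives. EAP replicate 1 and normal replicate 2 were named as a pair because they lay between the groups in earlier results of these data, and they are also the lowest and the highest library for Mt-nd4. Leaving them out therefore removes the lowest EAP and the highest normal value.

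**Figure D3:**
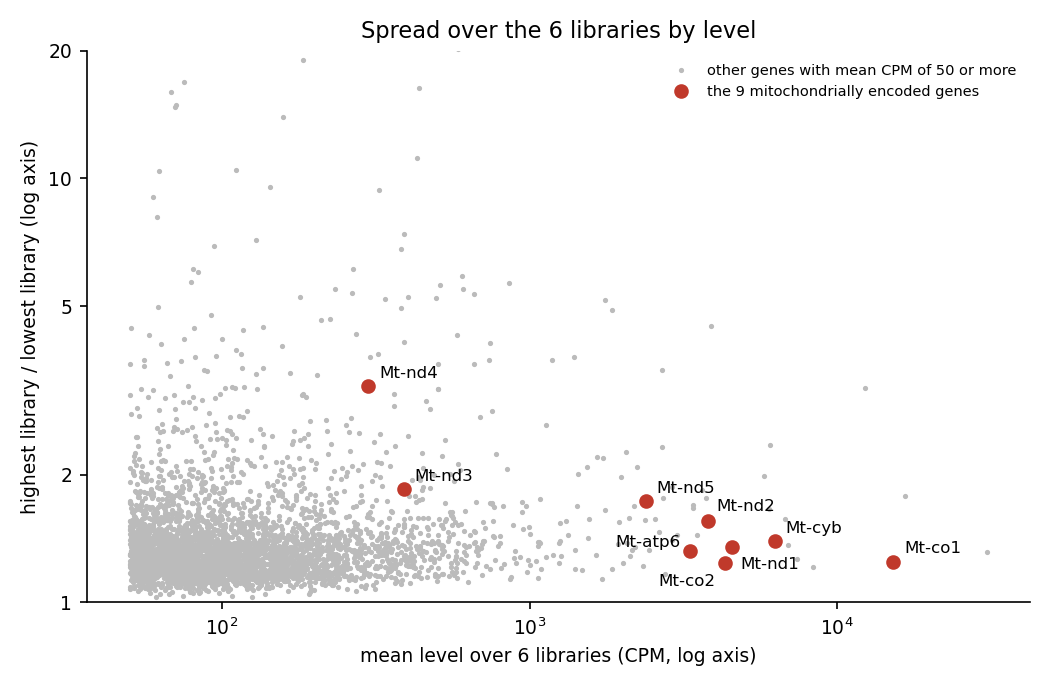
Each point is a gene, with its mean CPM over 6 libraries on a log axis and the ratio of its highest to its lowest library on a log axis; red points are the 9 genes and grey points 4021 other genes with a mean of at least 50 CPM (16 of them lie above the upper limit of 20). Mt-nd4, at 3.24, lies above the bulk of genes of its level, and Mt-co1 and Mt-co2 lie low, at 1.25 and 1.24.

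Complex III passes electrons from ubiquinol to cytochrome c, and Mt-cyb encodes its cytochrome b. Mt-cyb had 5905, 7111 and 5711 CPM in EAP and 7432, 5321 and 6090 CPM in normal replicates 1 to 3. Normal replicates held both the highest and the lowest value. The means were 6242 ± 759 and 6281 ± 1068 CPM (SD, n = 3 each), with a log2 fold change of -0.01 (95% interval -0.39 to 0.38, edgeR adjusted p = 0.992).

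Complex IV hands the electrons to oxygen. Mt-co1 encodes its catalytic core and Mt-co2 the subunit that receives electrons from cytochrome c. Mt-co1 took the most reads of the 9 genes and ranked 2 to 4 among all genes in each library, by reads and not per length. It had 13405, 15043 and 16270 CPM in EAP and 16720, 15027 and 14943 CPM in normal replicates 1 to 3. EAP replicate 3 and normal replicate 1 were the high libraries, 1 from each group. Its log2 fold change was -0.06 (95% interval -0.40 to 0.28, edgeR adjusted p = 0.906). Mt-co2 had 3926, 4357 and 4298 CPM in EAP and 4854, 4354 and 4198 CPM in normal replicates 1 to 3. It had the narrowest range of the 9 genes, with a log2 fold change of -0.09 (95% interval -0.40 to 0.21, edgeR adjusted p = 0.828).

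Complex V, the ATP synthase, uses the proton gradient to make ATP, and Mt-atp6 encodes a subunit of its proton channel. Mt-atp6 had 3439, 3515 and 2979 CPM in EAP and 3839, 2905 and 3251 CPM in normal replicates 1 to 3. The groups overlapped widely, and its log2 fold change was -0.01 (95% interval -0.35 to 0.33, edgeR adjusted p = 0.991). For 8 of the 9 genes, all except Mt-nd4, the 95% interval lay within a 2-fold change in either direction. The share of all genes tested with such an interval was not counted, so this is not read as a trait of these genes. By complex, complex I took 1.09% ± 0.0985 of all counts in EAP and 1.19% ± 0.106 in normal brain (SD, n = 3 each). Complex IV took 1.95% ± 0.177 and 1.96% ± 0.0562. The libraries of the groups overlapped for each of the 4 complexes.

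**Figure D4:**
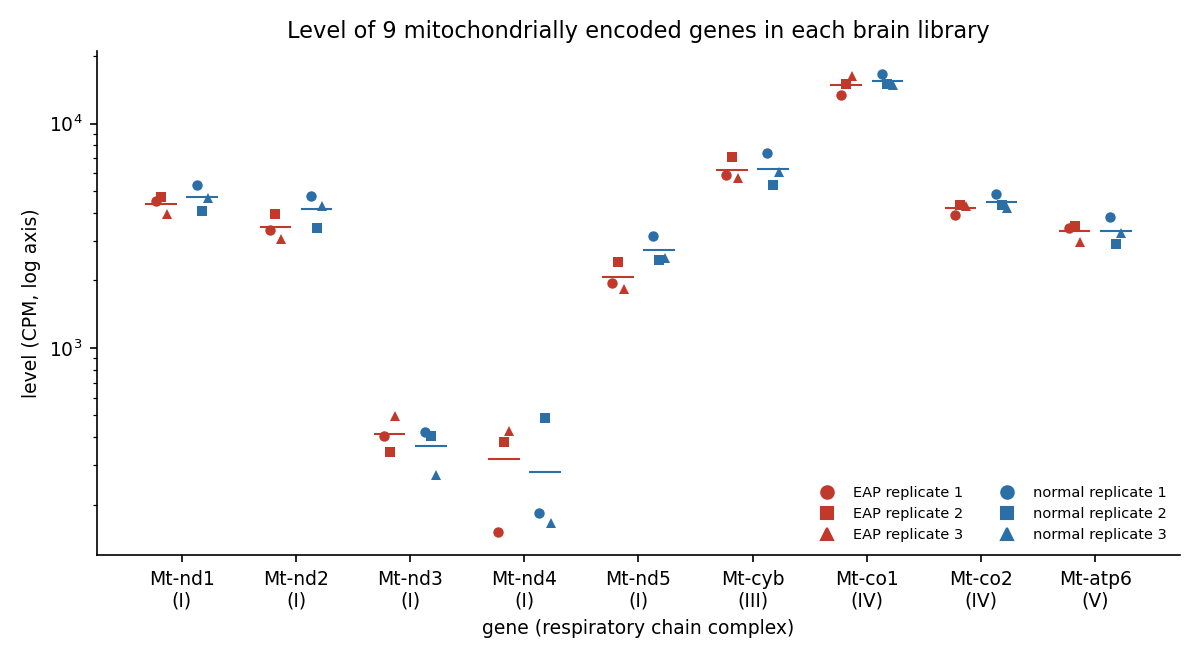
Points give the level of each gene in each library in CPM on a log axis, red for EAP and blue for normal brain, with 1 marker shape per replicate number and short lines at the group means. The groups overlap for 8 genes, the EAP libraries lie below the normal ones for Mt-nd5, and Mt-nd4 shows 3 high and 3 low libraries that do not follow the groups.

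Libraries differed in the overall level of these genes more than by group. Normal replicate 1 held the highest value for 7 of the 9, with Mt-nd3 and Mt-nd4 the exceptions. It also had the lowest TMM factor, 0.937 against 0.9995 to 1.03 in the other libraries, which raises its CPM values. Normal replicate 1 nevertheless had the highest summed share, a value free of that factor. The count of 7 is not free of it. By share of all counts, Mt-cyb was highest in EAP replicate 2 (0.720% against 0.696% in normal replicate 1). Mt-co1 had 219105 counts in EAP replicate 3 and 213786 in normal replicate 1, which had the larger total. How many of all genes were highest in normal replicate 1 was not counted.

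The make-up of the mitochondrial reads, which needs no scaling to library size, was next compared. Mt-co1 supplied 36.2%, 35.9% and 41.7% of the summed counts of the 9 genes in EAP replicates 1, 2 and 3, and 35.8%, 39.0% and 37.0% in normal replicates 1 to 3. Mt-co1 thus weighed most in EAP replicate 3 and normal replicate 2. These were also the 2 libraries with the lowest shares of Mt-nd1 (10.1% and 10.6%), Mt-atp6 (7.63% and 7.55%) and Mt-cyb (14.6% and 13.8%). The same 2 libraries had the lowest shares of Mt-nd2 (7.88% and 8.90%). They had the highest shares of Mt-co2 (11.0% and 11.3%) and Mt-nd4 (1.09% and 1.27%). Mt-nd3 and Mt-nd5 did not set these 2 libraries apart. Shares of 1 sum are tied to each other, so these are not separate results. Whether they form a single shift was not tested.

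Mt-nd5 was the only one of the 9 whose share of the sum did not overlap between groups. This share rests on the same counts as its CPM values, for which 8.41% of all genes tested showed the same order. It is therefore not a separate result. Its share was 5.24%, 5.79% and 4.69% in EAP and 6.78%, 6.44% and 6.22% in normal replicates 1 to 3. The means were 5.24% ± 0.55 and 6.48% ± 0.285 (SD, n = 3 each). Shares of all 9 genes were compared, and 3 libraries against 3 cannot give an exact permutation p below 0.1, so that no share could pass a threshold of 0.05.

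Count ratios between genes were then taken within each library, for all 36 pairs of the 9 genes. The groups did not overlap for 8 of the 36 pairs, or 22.2%. Among all pairs of the 50 most abundant other genes, 12% did not overlap. Pairs that have a gene in common are not independent, so these shares are a description only. The sets also differ in level. Of the 9 genes, 7 were among the 50 most abundant by mean CPM. Mt-nd3 and Mt-nd4 were not, and they were in none of the 8 pairs. A pair without overlap stays so when a library is left out, so the count cannot fall below 8. The share of the other pairs likewise cannot fall below 12%. Without normal replicate 2 the count was 15 (41.7%), against 33.5% among the other pairs. Without EAP replicate 2 it was 13 (36.1%), against 14.9%. Without EAP replicate 1 the members' share was 25%, and that of the other pairs rose from 12% to 38.2%. The members' share was thus not above that of the other pairs in this setting. The shares were 27.8% against 23% without EAP replicate 3. They were 22.2% against 19.5% without normal replicate 1, and 25% against 22.4% without normal replicate 3. Mt-nd5 was in 5 of the 8 pairs, with Mt-nd1, Mt-co1, Mt-co2, Mt-atp6 and Mt-cyb. The remaining 3 were Mt-nd2 with Mt-atp6, Mt-nd2 with Mt-cyb, and Mt-nd1 with Mt-atp6.

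For 3 of the 8 pairs the gap between the nearest libraries of the 2 groups was wider than the whole range within either group. How many pairs of other abundant genes had such a gap was not counted. The 3 pairs are therefore not read as a trait of these genes. Among the 3 was Mt-nd5 over Mt-cyb, genes that lie near each other on the mitochondrial genome. Their ratio was 0.329, 0.341 and 0.321 in EAP, and 0.427, 0.466 and 0.412 in normal replicates 1 to 3. The means were 0.330 ± 0.0101 and 0.435 ± 0.0279 (SD, n = 3 each). Any pair without overlap gives an exact two-sided permutation p of 0.1, the smallest possible with 3 libraries against 3. The p of this pair therefore adds nothing to its lack of overlap.

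The others were Mt-nd2 over Mt-cyb and Mt-nd1 over Mt-atp6. The ratio of Mt-nd2 to Mt-cyb was 0.566, 0.558 and 0.539 in EAP and 0.643, 0.644 and 0.705 in normal replicates 1 to 3. The ratio of Mt-nd1 to Mt-atp6 was 1.31, 1.34 and 1.33 in EAP and 1.40, 1.41 and 1.43 in normal replicates 1 to 3. Both were lower in each EAP library than in any normal library, the second by a small step with a narrow spread (1.33 ± 0.012 against 1.41 ± 0.0188, SD, n = 3 each). All 3 pairs were picked out after their values were seen. By contrast Mt-co1 over Mt-co2, both of complex IV, was 3.41, 3.45 and 3.79 in EAP and 3.45, 3.45 and 3.56 in normal replicates 1 to 3, with the groups overlapping.

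**Figure D5:**
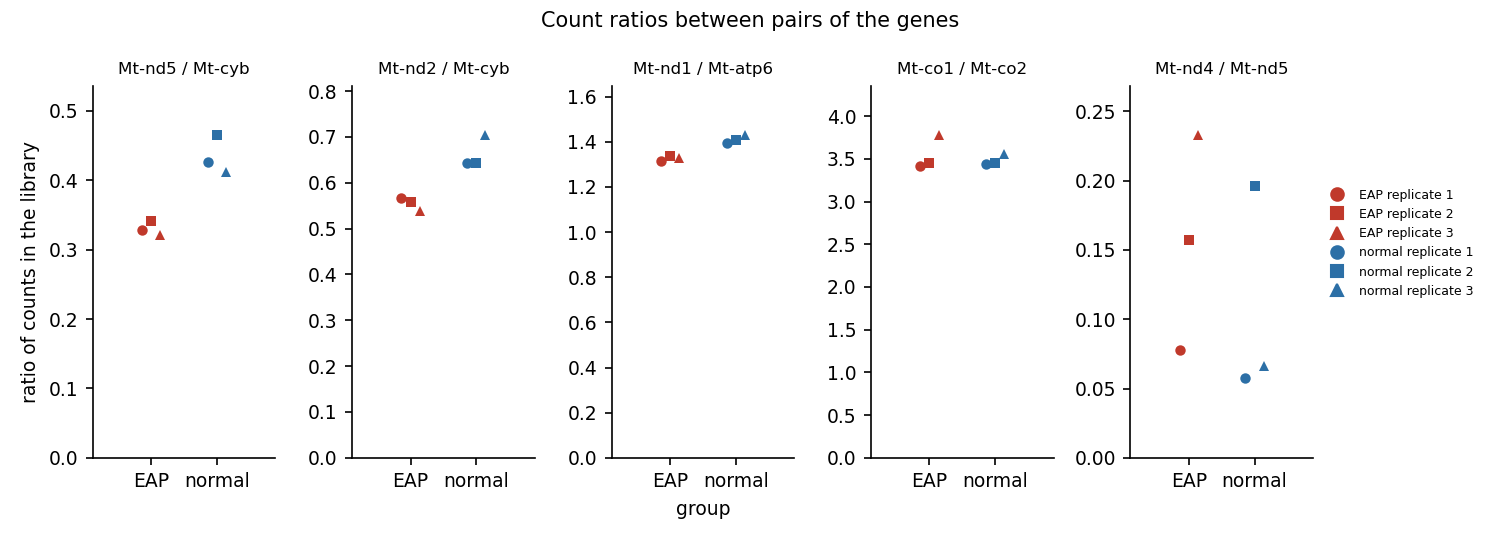
Each panel gives the ratio of counts of 2 genes in the same library, on an axis from 0, red for EAP and blue for normal brain, with 1 marker shape per replicate number. The groups do not overlap for Mt-nd5 over Mt-cyb (0.321 to 0.341 against 0.412 to 0.466), Mt-nd2 over Mt-cyb and Mt-nd1 over Mt-atp6, and overlap for Mt-co1 over Mt-co2 and for Mt-nd4 over Mt-nd5.

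Ratios with Mt-nd4 carried its high and low values. Mt-nd4 over Mt-nd5 was 0.0775, 0.157 and 0.233 in EAP and 0.0579, 0.196 and 0.066 in normal replicates 1 to 3, a range that runs across both groups. Mt-nd4 thus parted from Mt-nd5, which lies downstream of it on the same strand, by unequal amounts in libraries of the same group. The assignment of reads to Mt-nd4 is uncertain, as stated above. Whether it bears on the low level or the spread of Mt-nd4 was not tested.

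The genes whose pattern was most like the mean log2 CPM of the 9 over the 6 libraries were ENSRNOG00000019981 (Pearson r = 0.989, Spearman rho = 0.943) and ENSRNOG00000009155 (r = 0.976, rho = 0.943). The genes most opposed were ENSRNOG00000028113 (r = -0.994) and ENSRNOG00000010653 (r = -0.99). They are the extremes of 9766 genes compared over libraries that share depth and scaling, and are given as a description with no p. ENSRNOG00000019981 had 203, 247 and 238 CPM in EAP and 263, 234 and 214 CPM in normal replicates 1 to 3, highest in normal replicate 1 and lowest in EAP replicate 1. The deposited table gives these IDs no names. The mean of the 9 genes is itself not a pattern that each of them follows: Mt-co2 correlated with the mean of the other 8 at r = 0.901, Mt-nd3 at 0.01 and Mt-nd4 at -0.26.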

How the data were processed

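RNA from brain tissue was enriched for poly(A), per the labels' protocols, and sequenced in 3 EAP and 3 normal libraries. The authors deposited a table of raw read counts with 1 line per Ensembl gene, per the file headers, and the values are whole numbers that were not normalized. Tools named in the submitters' processing notes are HISAT2 2.2.1, Trimmomatic 0.39, DESeq2 1.36.0 and featureCounts 2.0.3, with Rnor_6.0 as the build. Their settings, the annotation release and the use of strand: not given in the sources used here. All 6 count columns were matched by name, and 0 other columns held values.

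The test was edgeR's quasi-likelihood test (edgeR 4.0.16, R 4.3.3), two-sided, in a model of group alone with robust dispersions and TMM factors. The expression filter of edgeR kept 13155 of 22250 genes. P-values were adjusted over all of them (Benjamini-Hochberg, threshold 0.05). Intervals are 95%, from the quasi-likelihood standard error. Fold changes are EAP over normal. DESeq2 1.42.0 and limma voom (limma 3.58.1) were run on the genes kept by the same filter. Likeness of pattern was taken on log2 CPM (prior count 2) over genes with a mean of at least 3, taking the 2 highest and the 2 lowest. The genes named are the 9 members and these 4. No reference ID matched (0 Ensembl IDs in the gene table used), so lists of nuclear respiratory genes and of cell type markers were not analysed here. The brain label was therefore not checked against markers, and tissue make-up was not compared. No library was a copy of another (lowest chi-square per degree of freedom for a pair, 20.9). The fit was tested on simulated data.

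The genes, lists and tests were chosen with earlier results of these data known. Alternatives were other scalings, filters, tools and dispersions, the replicate number as a block, and leaving out libraries; those on gene ratios and on the range of Mt-nd4 were chosen after seeing the data.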

Additional observations from a re-analysis of the deposited data

How the results depend on the processing

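In 16 of 17 alternative fits no member passed the threshold; leaving out both EAP replicate 1 and normal replicate 2 gave 1, Mt-nd4 (1.21 on the log2 scale, adjusted p = 0.00339). Mt-nd2, Mt-co2 and Mt-nd5 were below 0 in all 17 and Mt-nd3 above 0 in all 17. The 17 fits reuse the same 6 libraries, so these are not separate results. Mt-nd3 was at 0.0096 without normal replicate 3 and 0.0298 without EAP replicate 3, and Mt-co2 at -0.0284 without normal replicate 1. The direction of the others turned. With upper-quartile factors Mt-atp6 and Mt-cyb were at 0.043 and 0.044. With total counts only, Mt-co1, Mt-atp6 and Mt-cyb were at 0.0007, 0.0555 and 0.0563, and 4 members were below 0. When 1 library was left out, Mt-nd1 ran from -0.194 to 0.0068, its highest value without normal replicate 1. Mt-co1 reached 0.009 without EAP replicate 1. Mt-atp6 ran from -0.104 to 0.105 and Mt-cyb from -0.121 to 0.129, both highest without normal replicate 1. Mt-nd4 ran from -0.069 without EAP replicate 3 to 0.866 without normal replicate 2. Between 5 and 8 members were below 0 in these fits.

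The log2 ratio of the summed share was -0.03, and -0.13 for the median relative CPM of the members, which gives each gene equal weight; without 1 library it ran from -0.07 to 0.02. Other scalings moved each complex's share by under 1 SD, pooled over groups. Leaving out a library cannot move any share that far. Differences near 0 changed sign: that of the Mt-co1 share of the sum, 0.667 percentage points, was -1.2 without EAP replicate 3. Pairs with no overlap in their ratio numbered 8, and 8 to 15 without 1 library (22.2% to 41.7%), against 14.9% to 38.2% of the pairs of other abundant genes. The log2 ratio of EAP to normal for Mt-nd5 over Mt-cyb was then -0.44 to -0.35. Leaving out a library can neither lower the count nor turn this sign, so neither range is a check. The range of Mt-nd4 was then 2.84 to 3.24 times.

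Over all genes 4 passed the threshold. The count was 0 with upper-quartile factors and with non-robust dispersions, 1 with total counts only and with limma voom, 7 with no filter, 172 with DESeq2, 333 without EAP replicate 1 and normal replicate 2, and 0 to 47 without 1 library. At an unadjusted p under 0.05, upper-quartile factors gave 1536 genes and non-robust dispersions 1512; the fits with a count of 0 that lack normal replicate 3, EAP replicate 2 and EAP replicate 3 gave 965, 980 and 1013. The cause was not tested. With the replicate block 80 genes passed, and 0 members. Same-numbered libraries share no stated origin, and their deviations correlated at 0.0515 to 0.0718; each of the 6 was closest to the library of its own number, which is only a hint from the data. Each member had at least 1921 counts per library; whether more depth would change a call was not tested.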
